A study of Mus musculus with 20 samples.

Results

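The 10 genes around the transcription factor ATF4 examined in mouse tibiae were Atf4 itself, the amino acid and folate enzymes Asns, Phgdh, Psat1, Psph, Shmt2, Mthfd2 and Aldh1l2, and the stress response genes Trib3 and Chac1. They were chosen by name as 10 of the 54446 genes measured. Aldh1l2 was put among them because of its low level in the loaded tibiae of mice given dexamethasone (DEX), a synthetic glucocorticoid, so its values there are given as a description with no test. Bulk RNA-seq was measured in 20 libraries, 5 for each combination of treatment and loading, from 3-month-old male C57BL/6J mice. The DEX-treated group received subcutaneous injections of DEX at 1 mg/kg over 5 days and the vehicle-treated group received water by the same route. In the loaded groups, the left tibia was compressed with 40 cycles of -13 N per session. The labels give 2 sessions, on days 1 and 3. The study's figure legend for this experiment gives 3 sessions a week, and its methods for tibial loading give 2 to 3. The legend also gives the collection of tibiae as 4 hours after a last session on day 5, a day on which the labels give no session. The right tibia was the unloaded control.

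ATF4 is the effector of the integrated stress response. Kinases that sense a shortage of amino acids, misfolded protein or other stresses phosphorylate the initiation factor eIF2, and Atf4 mRNA is then translated more efficiently, so the Atf4 transcript reports only part of ATF4 activity. ATF4 raises the transcription of enzymes that make serine, glycine and asparagine and of enzymes that move carbon units through folate in mitochondria. In osteoblasts, the cells that form bone matrix, ATF4 is known for its role in amino acid supply for collagen synthesis.

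The libraries held 4641437 to 13032018 counts. The loaded DEX library numbered 4 stood apart, with the lowest total and the highest summed level of 1731 receptor genes of the chemical senses, 6290 CPM (counts scaled to library size), which are not known to act in bone and are read here as a measure of background reads. The unloaded DEX library numbered 4 was left out of means and tests, since the study removed a sample named DEX-4 and plotted 4 unloaded DEX values. Its text does not name the limb, so this choice is an inference. Levels are CPM scaled by edgeR's TMM method. Fold changes, rises and falls are given on the log2 scale, DEX against vehicle or loaded against unloaded, and a gene was called where its p adjusted over all genes tested was under 0.05. In whole bone, fewer cells of a type and less RNA per cell cannot be told apart. Markers of osteoblasts, osteocytes, neutrophils, B cells and skeletal muscle were all detected in every group.

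Since several of these genes are known for transcription through an element recognised by ATF4 with C/EBP proteins, promoters were searched for its core. The letters TGATGNAAN were searched on both strands of the 300 bases around each annotated start, 250 before it and 50 after it, as given by RefSeq for GRCm38.p6. Of the 10 genes, 9 had a promoter entry, all but Aldh1l2, with 10 promoters in all. The core was in the promoters of 3 genes, Asns, Trib3 and Chac1, and in 3.95% of the 32851 promoters of all genes. These sequences are shown, 5′ to 3′ along the gene's strand, because they hold the matches to the core. Capitals mark the core, which lies in the direction of the gene in Asns and against it in Trib3 and Chac1. It begins at positions -23, 13 and -194 from the RefSeq start, respectively. The gene coordinates given below are from GENCODE, whose starts differ. By those, the core lies inside Asns and before Trib3. The windows lie at chr6:7693213-7693242, chr2:152344028-152344057 and chr2:119351038-119351067.
Asns: cccagccacaTGATGAAACttcccgcacgc
Trib3: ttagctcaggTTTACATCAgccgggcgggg
Chac1: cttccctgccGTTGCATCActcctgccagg
A match of these letters is a description and not a binding site, and their absence from the other windows searched says nothing about ATF4.

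Per kilobase of the longest transcript, the order of the levels was the same in both vehicle-treated groups. Atf4 was highest at 58.3 ± 5.6 CPM per kilobase (SD, n = 5) in unloaded vehicle-treated tibiae. The mitochondrial folate enzymes Shmt2 and Mthfd2 came next at 18.1 ± 2.21 and 14.8 ± 4.42, which overlapped within their spread. Phgdh, Asns, Aldh1l2 and Psat1 followed between 9.72 ± 1.59 and 5.49 ± 0.834, each within the spread of its neighbour. Psph, Chac1 and Trib3 were lowest at 2.43 ± 0.465, 1.91 ± 0.489 and 0.902 ± 0.459. In the DEX-treated group this order was kept by Atf4, Shmt2, Mthfd2, Phgdh and Asns, whereas Aldh1l2 stood at place 9 in unloaded and at place 10 in loaded tibiae. With merged exons as the length, Phgdh stood above Mthfd2 in both DEX-treated groups, Chac1 above Psph in the vehicle-treated groups and in unloaded DEX-treated tibiae, and Trib3 above Psph in loaded DEX-treated tibiae.

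**Figure D1:**
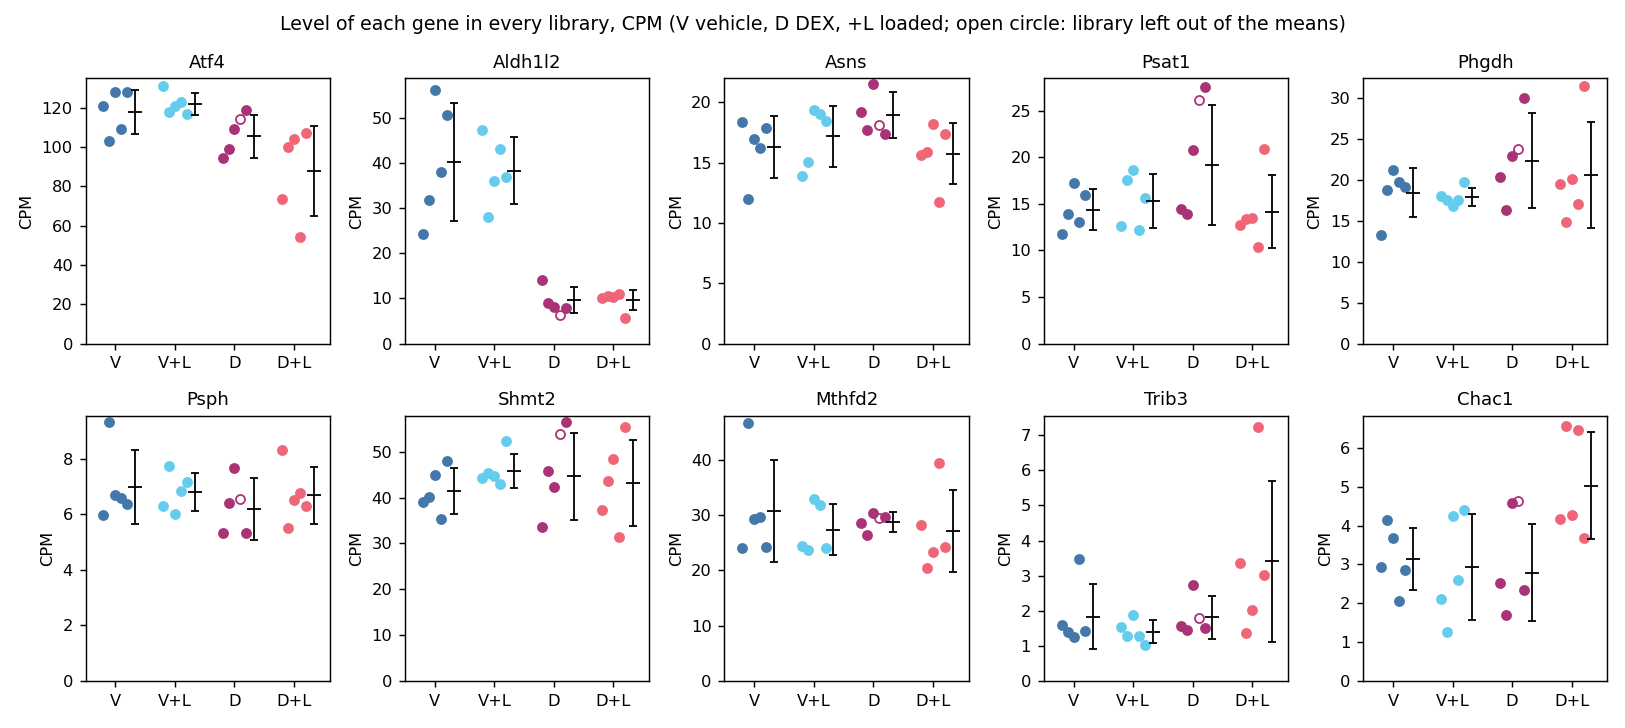
CPM of the 10 genes in each of the 20 libraries, by group (V, vehicle; D, DEX; +L, loaded); points are libraries, bars are mean ± SD over n = 5 (n = 4 for unloaded DEX) and the open circle is the library left out. Only in the panel of Aldh1l2 do all DEX libraries lie below all vehicle libraries, at 5.63 to 14 CPM against 24.3 to 56.2 CPM.

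Aldh1l2 (ENSMUSG00000020256.14, chr10:83487450-83534140 on the minus strand, GRCm38) encodes the mitochondrial 10-formyltetrahydrofolate dehydrogenase, which oxidises the formyl group of folate to carbon dioxide and yields NADPH. In unloaded vehicle-treated tibiae, its level was 24.3, 31.8, 56.2, 38.1 and 50.6 CPM. In unloaded DEX-treated tibiae, it was 14, 8.90, 8.03 and 7.96 CPM, and 6.43 CPM in the library left out. The groups did not overlap, with the highest DEX library below the lowest vehicle library, as was so for 10.8% of all genes tested, 6.4% with DEX lower. Aldh1l2 fell by 2.04 (SE 0.256) on the log2 scale, to 0.243 of the vehicle level (adjusted p = 0.00386, edgeR's quasi-likelihood test). It was the only one of the 10 genes called here, while 6.84% of all 19738 genes tested were called, 3.99% as lower. Among the 787 genes called lower, it stood at place 31 by size of the fall. These libraries are not those on which Aldh1l2 was chosen, but by the study's methods the unloaded limb is the other tibia of the same mice, so the animals are not independent of that choice.

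The fall in unloaded tibiae was called in each of the 9 fits that left out 1 library, with log2 fold changes from -2.24 to -1.89 and adjusted p from 0.00397 to 0.022. In loaded tibiae, Aldh1l2 was 47.4, 28.1, 36.0, 43.1 and 36.8 CPM with vehicle and 10.2, 10.6, 10.4, 11 and 5.63 CPM with DEX. The groups were again separate, and the log2 fold change was -1.96 (SE 0.197), which is what the gene was chosen for. Without the loaded DEX library numbered 4 it was -2.03 (SE 0.210). Loading itself went with log2 fold changes of Aldh1l2 of -0.09 (SE 0.208) in the vehicle-treated group and -0.05 (SE 0.226) in the DEX-treated group, both smaller than their standard errors.

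A ratio to another gene of the same library does not depend on how libraries are scaled. Relative to Atf4, Aldh1l2 stood at a log2 ratio of -1.61 ± 0.438 (SD, n = 5) in unloaded vehicle-treated tibiae and -3.47 ± 0.512 (SD, n = 4) in unloaded DEX-treated tibiae. The ratio to Shmt2, which produces mitochondrial folate carbon units from serine, went from -0.10 ± 0.403 to -2.21 ± 0.667. The ratio to Mthfd2, which oxidises those units, went from 0.37 ± 0.667 to -1.60 ± 0.418. The differences of -1.87, -2.11 and -1.97 each had an exact two-sided permutation p of 0.0159 (n = 4 and 5), also after adjustment over the 3 ratios, which is the smallest p this design allows. In every unloaded DEX library the ratio was below every unloaded vehicle library for all 3 partners. All 3 ratios share Aldh1l2, whose groups were already separate. The partners themselves had log2 fold changes of -0.14, 0.13 and -0.09. The 3 tests thus restate 1 fall, and the limit given above for the choice of Aldh1l2 holds here too.

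**Figure D2:**
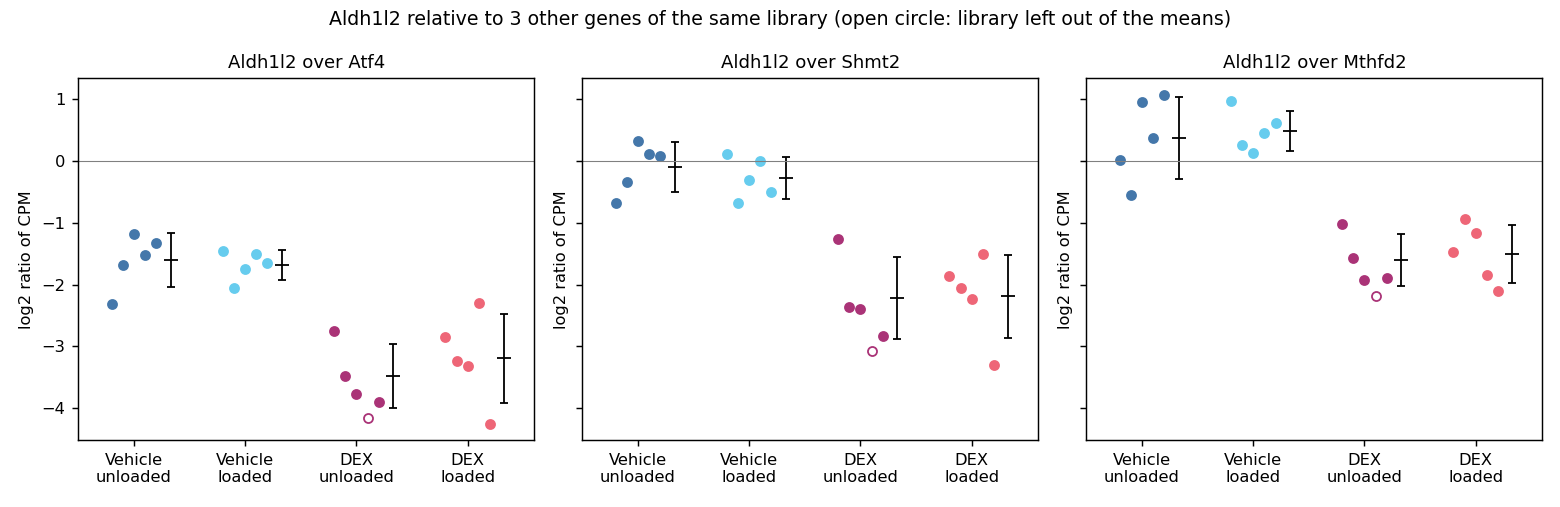
Log2 ratio of Aldh1l2 CPM to the CPM of Atf4, Shmt2 or Mthfd2 in the same library, by group; points are libraries, bars are mean ± SD over n = 5 (n = 4 for unloaded DEX) and the open circle is the library left out. The unloaded DEX means of -3.47, -2.21 and -1.60 lie below the unloaded vehicle means of -1.61, -0.10 and 0.37.

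Most osteoblast markers were lower with DEX, as was Aldh1l2. Of 12 markers, 7 were called lower with DEX in unloaded tibiae and 9 in loaded tibiae, against 6.84% and 21.3% of all genes called. Their median log2 fold changes were -1.38 and -1.58, against 0.03 and 0.00 over all genes. Their summed level was 45400 to 154000 CPM in unloaded vehicle-treated and 8230 to 39000 CPM in unloaded DEX-treated tibiae, so these groups did not overlap either. In loaded tibiae it was 68900 to 102000 CPM with vehicle and 5540 to 26000 CPM with DEX. None of the 12 markers was at 0 in any group. With the receptor sum as a covariate none of the 12 was called in loaded tibiae, where their median was -1.29. That fit called 0.152% of all genes. Alpl, the alkaline phosphatase of mineralising cells, fell by 1.64 (SE 0.282, adjusted p = 0.0104, edgeR) in unloaded tibiae, and Bglap, which encodes osteocalcin, fell by 2.95 (SE 0.534, adjusted p = 0.0121). Runx2, the early transcription factor of the osteoblast lineage, had a log2 fold change of -0.21 (SE 0.138, adjusted p = 0.379). Spp1 went the other way in unloaded tibiae, at 0.29 (SE 0.215, adjusted p = 0.422), while the other 11 markers were below 0. The part of the osteoblast markers in the level of Aldh1l2 was not tested.

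Other cell type markers also differed with DEX, where 6.84% of all genes tested were called in unloaded and 21.3% in loaded tibiae. Of 6 osteocyte markers, 2 of the 5 tested were called lower in unloaded tibiae, and in loaded tibiae 4 were called lower and 1 higher. Of 8 B cell markers, 3 and 7 were called lower, whereas of 8 neutrophil markers 6 and 7 were called higher in unloaded and loaded tibiae. The summed neutrophil markers were 4900 to 7120 CPM with vehicle and 8700 to 15900 CPM with DEX in unloaded tibiae. Of 8 skeletal muscle markers, none was called in unloaded tibiae, where all 8 log2 fold changes were below 0 with a median of -1.84, and 1 was called higher in loaded tibiae, where all 8 were above 0 with a median of 0.49. For the interaction the median of the 8 was 2.24, and none was called. Of the chondrocyte markers, 1 of 8 tested was called lower in unloaded and 8 of 9 in loaded tibiae, and of 6 markers of periosteum and tendon fibroblasts 3 and 4 were called lower. Of 5 adipocyte markers 2 were called higher in either limb, of 6 osteoclast markers 1 was called higher in unloaded and 1 lower in loaded tibiae, and of 7 erythroid markers none was called. Without the loaded DEX library numbered 4, the loaded counts were 2 lower and none higher for osteocytes, 7 lower for chondrocytes and none for adipocytes, osteoclasts and muscle, while those for neutrophils, B cells and fibroblasts were as before. That fit called 15.2% of all genes. With the receptor covariate, where 0.152% of all genes were called, 1 B cell marker was called lower in loaded tibiae and no marker of the other lists was called. The medians of B cells, neutrophils, chondrocytes, fibroblasts and osteocytes were then -1.51, 1.08, -2.56, -0.89 and -0.35. Without the covariate they were -1.76, 1.02, -3.23, -1.36 and -0.65. No marker of these lists was at 0 in any group. The part of these markers in the values of the 10 genes was not tested.

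**Figure D3:**
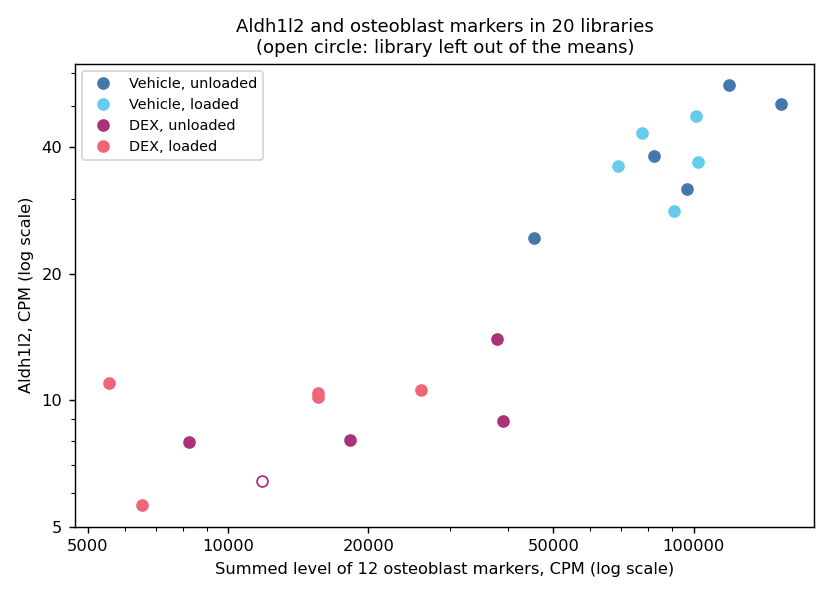
Aldh1l2 CPM against the summed CPM of 12 osteoblast markers in the 20 libraries, both on log axes; each point is a library, coloured by group, and the open circle is the library left out. Most of the marker sum comes from Col1a1 and Col1a2. Vehicle libraries lie at the upper right and DEX libraries at the lower left, where the marker sum runs from 5540 to 39000 CPM while Aldh1l2 stays between 5.63 and 14 CPM.

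The genes with the most similar pattern to Aldh1l2 over the 20 libraries were P4ha2, Mmp23 and Cacnb3, with Spearman correlations of log2 CPM of 0.949, 0.943 and 0.941. P4ha2 encodes a subunit of collagen prolyl hydroxylase and Mmp23 a membrane metalloproteinase. The points share the treatment groups, and within the 10 vehicle libraries the correlations were 0.685, 0.709 and 0.685. Within the 10 DEX libraries they were 0.903, 0.83 and 0.855, and without both libraries numbered 4 they were 0.905, 0.667 and 0.905. The log2 fold changes of P4ha2, Mmp23 and Cacnb3 in unloaded tibiae were -1.31 (SE 0.255), -1.17 (SE 0.235) and -1.21 (SE 0.281), each smaller in size than that of Aldh1l2.

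Aldh1l2 shares 1056 bases with D10Wsu102e on the opposite strand, and the sources used here do not say whether counting used the strand. D10Wsu102e was at 125 ± 18.1 CPM in unloaded vehicle-treated (SD, n = 5) and 159 ± 57.4 CPM in unloaded DEX-treated tibiae (SD, n = 4). Its log2 fold change was 0.35 (adjusted p = 0.298, edgeR) in unloaded and 0.80 (adjusted p = 0.0782) in loaded tibiae, the opposite sign to Aldh1l2. Psat1, Psph and Shmt2 also overlap a gene on the other strand, and Mthfd2 overlaps Gm43890 on its own strand, so their counts could hold reads of the other gene.

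The other 9 genes were not called in unloaded tibiae. Their adjusted p was 0.243 or more (edgeR), their median log2 fold change was 0.01, and all of their groups overlapped. The largest log2 fold changes were 0.44 (SE 0.222, adjusted p = 0.243) for Psat1 and 0.30 (SE 0.198, adjusted p = 0.363) for Phgdh. The cytosolic serine pathway has 3 steps. Phgdh (3-phosphoglycerate dehydrogenase, chr3:98313170-98339990) makes the first, Psat1 (phosphoserine aminotransferase, chr19:15904678-15947337) the second and Psph (phosphoserine phosphatase, chr5:129765558-129787449) the third.

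Psat1 was 11.8, 13.9, 17.2, 13 and 16.0 CPM in unloaded vehicle-treated and 14.4, 13.9, 20.8 and 27.6 CPM in unloaded DEX-treated tibiae. The 2 lowest DEX libraries lay within the vehicle range and the 2 highest above it. Without DEX replicate 5 its log2 fold change was 0.16. Phgdh was 13.3 to 21.2 CPM with vehicle, with a median of 19.1, and 16.3 to 30.0 CPM with DEX, with a median of 21.6, and its log2 fold change was 0.08 without DEX replicate 5. Psph was at 6.99 ± 1.34 CPM (SD, n = 5) with vehicle and 6.18 ± 1.11 CPM (SD, n = 4) with DEX, with a log2 fold change of -0.17 (SE 0.204, adjusted p = 0.639, edgeR). In loaded tibiae, the log2 fold changes of Phgdh, Psat1 and Psph were 0.25 (SE 0.182), -0.06 (SE 0.191) and 0.01 (SE 0.177), with adjusted p of 0.332, 0.841 and 0.967 (edgeR). Without DEX replicate 5, that of Phgdh was 0.03 there.

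Shmt2 (chr10:127517123-127522444) and Mthfd2 (chr6:83305691-83325908) act before Aldh1l2 in mitochondrial folate metabolism. Shmt2 was at 41.5 ± 5.06 CPM in unloaded vehicle-treated, 45.9 ± 3.67 CPM in loaded vehicle-treated (both SD, n = 5), 44.6 ± 9.48 CPM in unloaded DEX-treated (SD, n = 4) and 43.2 ± 9.40 CPM in loaded DEX-treated tibiae (SD, n = 5). Its log2 fold change with DEX was 0.13 (SE 0.166, adjusted p = 0.663, edgeR) in unloaded and -0.04 (SE 0.143, adjusted p = 0.857) in loaded tibiae. Mthfd2 was at 30.8 ± 9.22, 27.4 ± 4.55, 28.7 ± 1.77 and 27.1 ± 7.41 CPM in the same order of groups. Its log2 fold changes were -0.09 (SE 0.197, adjusted p = 0.812) and 0.03 (SE 0.188, adjusted p = 0.934). For both enzymes the DEX and vehicle libraries overlapped throughout. Asns (chr6:7675169-7693254), the asparagine synthetase, was at 16.3 ± 2.56, 17.2 ± 2.47, 18.9 ± 1.87 and 15.7 ± 2.53 CPM, with log2 fold changes of 0.23 (SE 0.144, adjusted p = 0.337) and -0.08 (SE 0.152, adjusted p = 0.724).

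**Figure D4:**
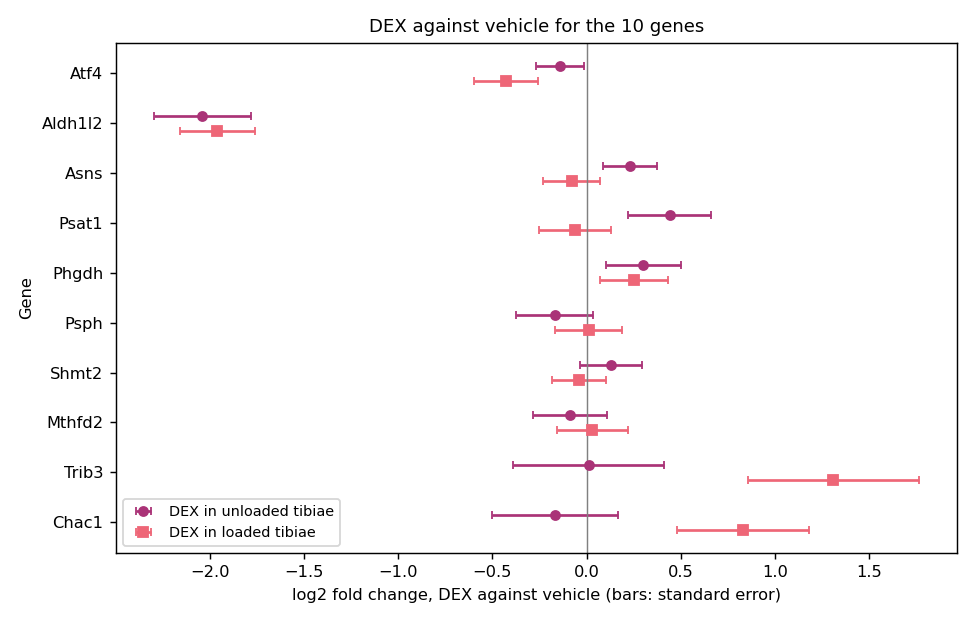
Log2 fold change of the 10 genes, DEX against vehicle, in unloaded tibiae (circles) and loaded tibiae (squares), with bars for the standard error. Aldh1l2 lies at -2.04 and -1.96, whereas the other 9 genes lie between -0.43 and 1.31.

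In loaded tibiae, 21.3% of the 19780 genes tested were called, and none of the 9 genes other than Aldh1l2, which was chosen on this contrast and is not counted. Atf4, Trib3 and Chac1 came closest to the threshold. Atf4 (ENSMUSG00000042406.8, chr15:80255184-80257541) was 131, 118, 121, 123 and 117 CPM in loaded vehicle-treated and 73.4, 99.9, 104, 54.2 and 107 CPM in loaded DEX-treated tibiae. These groups did not overlap, as was the case for 16.5% of all genes tested, 8.85% with DEX lower. The log2 fold change was -0.43 (SE 0.170, adjusted p = 0.0841, edgeR), and the DESeq2 Wald test put it under the threshold (adjusted p = 0.0477), with 28.6% of all genes called. In unloaded tibiae, Atf4 was at 118 ± 11.3 CPM with vehicle (SD, n = 5) and 105 ± 10.9 CPM with DEX (SD, n = 4), with a log2 fold change of -0.14 (SE 0.127, adjusted p = 0.529, edgeR).

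Trib3 (chr2:152337422-152344032) encodes a pseudokinase that restrains ATF4 activity. It was 1.55, 1.27, 1.88, 1.29 and 1.03 CPM in loaded vehicle-treated and 3.35, 1.37, 2.03, 7.24 and 3.03 CPM in loaded DEX-treated tibiae. DEX replicate 4 was the highest and replicate 2 lay within the vehicle range. The log2 fold change was 1.31 (SE 0.455, adjusted p = 0.0559, edgeR), and 0.83 (SE 0.361, adjusted p = 0.135) without DEX replicate 4. Without DEX replicate 2 it was 1.48 and was called (adjusted p = 0.0243), as it was by the DESeq2 Wald test (adjusted p = 0.0243). Trib3 rests on 10 to 46 counts in a library, so its values carry a large counting error.

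Chac1 (chr2:119351229-119354381) encodes an enzyme that degrades glutathione. It was 2.10, 1.27, 4.25, 2.59 and 4.40 CPM in loaded vehicle-treated and 4.16, 6.56, 4.27, 6.46 and 3.68 CPM in loaded DEX-treated tibiae, which overlapped. Its log2 fold change was 0.83 (SE 0.351, adjusted p = 0.106, edgeR), from 13 to 67 counts in a library over all groups. In unloaded tibiae, the log2 fold changes of Trib3 and Chac1 were 0.01 (SE 0.403, adjusted p = 0.992) and -0.17 (SE 0.335, adjusted p = 0.792).

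Background reads moved with several of the 10 genes. The summed receptor genes were 256 to 904 CPM in loaded vehicle-treated and 1070 to 6290 CPM in loaded DEX-treated tibiae, which did not overlap. Among the 20 libraries, the loaded DEX library numbered 4 had the highest receptor sum, the highest Trib3 level and the lowest levels of Atf4, Asns (11.7 CPM), Psat1 (10.4 CPM) and Shmt2 (31.3 CPM), while Mthfd2 was 39.4 CPM there. Since the receptor sum separates the loaded groups, a fit with it as a covariate cannot tell treatment from background reads there. That fit called 0.152% of all genes in loaded tibiae, against 21.3% without the covariate. With the receptor sum as a covariate, the log2 fold changes in loaded tibiae were -0.01 (SE 0.232) for Atf4, -0.32 (SE 0.527) for Trib3 and 0.54 (SE 0.522) for Chac1. Mthfd2 was then at -0.78 (SE 0.172, adjusted p = 0.0899, edgeR), against 0.03 without the covariate and -0.16 (SE 0.15) without that library. The other 5 genes lay between -0.14 (SE 0.301) for Psph and 0.41 (SE 0.312) for Phgdh, with Asns at -0.05, Psat1 at 0.17 and Shmt2 at 0.32. In unloaded tibiae, where the receptor sum was 381 to 1320 CPM with vehicle and 778 to 2830 CPM with DEX, the covariate put Psat1 at 0.72 (SE 0.227, adjusted p = 0.0588), Phgdh at 0.49 (SE 0.222, adjusted p = 0.174) and Shmt2 at 0.37 (SE 0.143, adjusted p = 0.114), and the other 6 genes between -0.30 and 0.29. None of the 9 genes was called with the covariate in either limb. Those fits called 30 of 19780 genes in loaded and 2591 of 19738 genes in unloaded tibiae. In the same model the log2 fold change of Aldh1l2 was -2.20 (SE 0.316) in loaded tibiae, and in unloaded tibiae it was -1.82 (SE 0.316, adjusted p = 0.00734, edgeR).

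**Figure D5:**
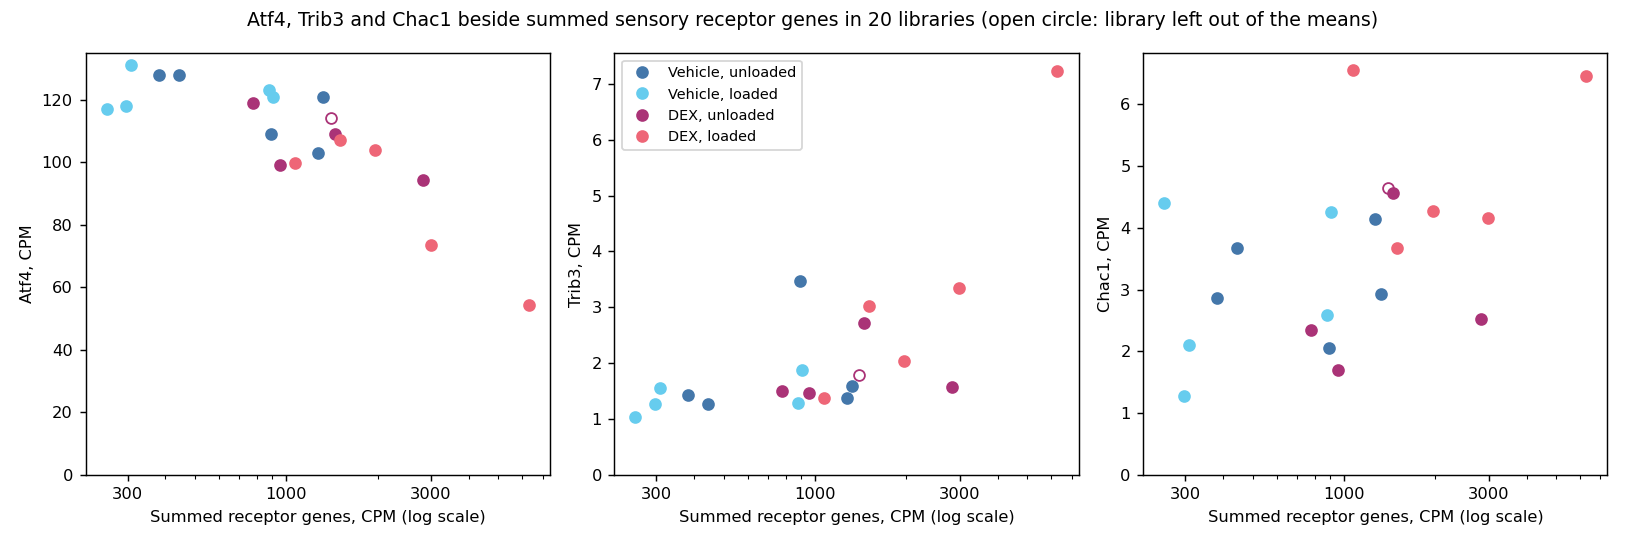
CPM of Atf4, Trib3 and Chac1 against the summed CPM of 1731 sensory receptor genes (log axis) in the 20 libraries; each point is a library, coloured by group, and the open circle is the library left out. The loaded DEX library at 6290 CPM of receptor genes has the lowest Atf4 level, 54.2 CPM, and the highest Trib3 level, 7.24 CPM.

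None of the 9 genes other than Aldh1l2 was called for loading, in either treatment, or for the interaction of treatment and loading, in which edgeR called 0.0% of 17982, 22541 and 23653 genes. At an unadjusted p under 0.05 there were 1773, 958 and 2859 genes. Among the members other than Aldh1l2 there was 1 in the DEX-treated group, Chac1, and none in the other comparisons. DESeq2 called 141, 0 and 50 genes, or 0.784%, 0.0% and 0.211%, which included none of the 9. In the vehicle-treated group, the log2 fold changes of the 9 other genes had a median of -0.07 and adjusted p of 0.68 or more (edgeR). In the DEX-treated group, Chac1 had a log2 fold change of 0.81 (SE 0.344) and Trib3 of 0.84 (SE 0.475), both with an adjusted p of 0.733. That of Trib3 was 0.43 without DEX replicate 4 of the loaded tibiae and 0.27 with the receptor covariate. The interaction, the change with loading in DEX minus that in vehicle, was 1.24 (SE 0.598, adjusted p = 0.413) for Trib3, 0.95 (SE 0.485, adjusted p = 0.421) for Chac1 and -0.54 (SE 0.313, adjusted p = 0.437) for Psat1. For Trib3 it was 0.80 without loaded DEX replicate 4 and 0.50 with the receptor covariate, and for Psat1 -0.31 without unloaded DEX replicate 5 and -0.26 with the covariate. A difference in loading response between treatments was thus not detected for these genes.

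How the genes varied from library to library is given by Spearman correlations, as a description in points that share treatment and depth. Over the 20 libraries, Atf4 stood at 0.22 with Asns and at -0.444 with Trib3. Within the 10 DEX libraries, Atf4 stood at 0.879 with Psat1, 0.83 with Shmt2 and 0.697 with Phgdh, against 0.0182, 0.285 and -0.0424 within the 10 vehicle libraries. These DEX libraries include both numbered 4, the loaded one with the lowest Atf4, Psat1 and Shmt2 of all, and without both, chosen after seeing the data, the values over 8 libraries were 0.762, 0.714 and 0.643. Psat1 went with Shmt2 (0.674) and with Phgdh (0.657), and these 2 pairs were also positive within the 10 vehicle libraries (0.636 and 0.248) and the 10 DEX libraries (0.745 and 0.83, or 0.524 and 0.857 without both numbered 4). The genes closest to Psat1 were Bub3, Plk1 and Pclaf at 0.889, 0.871 and 0.863. Plk1 is a mitotic kinase, and Pclaf is bound to the replication clamp PCNA. Shmt2 was closest to Fam122a, Hnrnpf and Rnf40 (0.944, 0.94 and 0.905). Aldh1l2 and Atf4 correlated at 0.673 within the vehicle libraries and at -0.758 within the DEX libraries. Within the DEX libraries, Aldh1l2 also stood at -0.794 with Shmt2, -0.733 with Psat1 and -0.697 with Phgdh, against 0.285, 0.0788 and 0.6 within the vehicle libraries. Without both libraries numbered 4, Aldh1l2 stood at -0.667 with each of Atf4, Shmt2, Psat1 and Phgdh.

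Of 19 genes of serine, glycine and folate metabolism, the 10 genes left aside, 14 were tested with DEX, and 1 was called higher and 1 lower in either limb, where 6.84% of all genes were called in unloaded and 21.3% in loaded tibiae. In unloaded tibiae 7 of the 14 log2 fold changes were below 0, with a median of -0.02 against 0.03 over all genes, and in loaded tibiae 11 were, with a median of -0.14 against 0.00. Without the loaded DEX library numbered 4, where 15.2% of all genes were called, 1 was called higher and none lower in loaded tibiae. With the receptor covariate, where 0.152% of all genes were called, none was called and the median was -0.08. In unloaded tibiae, Aldh1l1, the cytosolic counterpart of Aldh1l2, rose by 1.13 (SE 0.300, adjusted p = 0.0441, edgeR), from 3.27 ± 0.716 CPM (SD, n = 5) to 6.99 ± 3.05 CPM (SD, n = 4), and Gcsh of the glycine cleavage system fell by 0.79 (SE 0.182, adjusted p = 0.027). In loaded tibiae, Shmt1, the cytosolic serine hydroxymethyltransferase, rose by 0.64 (SE 0.186, adjusted p = 0.0292) and Slc25a32, the mitochondrial folate carrier, fell by 0.41 (SE 0.131, adjusted p = 0.0422). The log2 fold change of Aldh1l1 in loaded tibiae was 0.47 (SE 0.354, adjusted p = 0.349).

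Among 13 genes for proline, glutamine and other amino acid synthesis, 1 was called higher and 2 lower in unloaded tibiae, and 2 higher and 2 lower in loaded tibiae, against 6.84% and 21.3% of all genes. With the receptor covariate none was called in loaded tibiae, where 0.152% of all genes were called. The median of the 13 was then 0.15, against 0.23 without the covariate. Pycr1, which makes proline in mitochondria, fell by 1.02 (SE 0.253, adjusted p = 0.0341, edgeR) in unloaded and by 1.38 (SE 0.225, adjusted p = 0.00285) in loaded tibiae. Aldh18a1, the enzyme that begins proline synthesis from glutamate, fell by 1.13 (SE 0.139, adjusted p = 0.000582) in loaded tibiae. In unloaded tibiae its log2 fold change was -0.50 (SE 0.168, adjusted p = 0.0945). Oat, ornithine aminotransferase, fell by 0.59 (SE 0.138, adjusted p = 0.0278) in unloaded tibiae. Glul, the glutamine synthetase, rose by 0.61 (SE 0.153, adjusted p = 0.0358) in unloaded and 0.59 (SE 0.148, adjusted p = 0.0169) in loaded tibiae, and Gpt2, an alanine aminotransferase, rose by 1.11 (SE 0.266, adjusted p = 0.0151) in loaded tibiae. In unloaded tibiae the log2 fold change of Gpt2 was -0.81 (SE 0.417, adjusted p = 0.256), with 17.7 ± 11.5 CPM (SD, n = 4) in the DEX-treated and 31.9 ± 15.0 CPM (SD, n = 5) in the vehicle-treated group. The skeletal muscle markers changed sign between limbs in the same way (medians of -1.84 and 0.49), and their part in the values of Gpt2 was not tested.

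Of 12 amino acid transporters, 11 were tested. None was called in unloaded tibiae and 2 were called lower in loaded tibiae. Slc1a4 fell by 0.91 (SE 0.270, adjusted p = 0.0323, edgeR) and Slc36a4 by 0.36 (SE 0.112, adjusted p = 0.0363). Of 20 aminoacyl-tRNA synthetases, which charge tRNAs with amino acids, none was called in unloaded and 2 in loaded tibiae, against 6.84% and 21.3% of all genes. Gars fell by 0.54 (SE 0.154, adjusted p = 0.0283) and Yars by 0.33 (SE 0.110, adjusted p = 0.0483). The log2 fold changes of 19 of the 20 were below 0 in loaded tibiae, with a median of -0.30 against 0.00 over all genes, while in unloaded tibiae 8 were below 0, with a median of 0.04. Their summed level was 1280 to 1470 CPM in loaded vehicle-treated and 812 to 1240 CPM in loaded DEX-treated tibiae, with a DEX median of 1210 CPM. Without the loaded DEX library numbered 4, where 15.2% of all genes were called, 1 synthetase was called lower and 17 were below 0, with a median of -0.21. With the receptor covariate, where 0.152% of all genes were called, none was called and 6 were below 0, with a median of 0.06. For the transporters the count called lower was 1 without that library and none with the covariate.

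Of 16 further stress response genes tested, 3 were called lower in unloaded tibiae, and 4 lower and 1 higher in loaded tibiae, against 6.84% and 21.3% of all genes. Vldlr fell by 1.05 (SE 0.179, adjusted p = 0.0103, edgeR), Nupr1, a stress-induced chromatin protein, by 1.13 (SE 0.242, adjusted p = 0.021) and Herpud1, of the degradation machinery of the endoplasmic reticulum, by 0.61 (SE 0.149, adjusted p = 0.0325) in unloaded tibiae. In loaded tibiae, Stc2, which encodes stanniocalcin, rose by 0.93 (SE 0.202, adjusted p = 0.0103). There Ddit4, an inhibitor of mTORC1, fell by 1.09 (SE 0.255, adjusted p = 0.0137), Nupr1 by 1.04 (SE 0.324, adjusted p = 0.0378) and Xpot, the tRNA exportin, by 0.48 (SE 0.157, adjusted p = 0.0466). Herpud1, named after its values were seen, fell by 0.50 (SE 0.168, adjusted p = 0.0483). Of 7 kinases and subunits upstream of ATF4, none was called in unloaded tibiae and 3 in loaded tibiae, where 21.3% of all genes were called and all 7 log2 fold changes were below 0. The eIF2 kinases Eif2ak2 (PKR), Eif2ak3 (PERK) and Eif2ak4 (GCN2) fell by 0.43 (SE 0.107, adjusted p = 0.0171), 0.59 (SE 0.151, adjusted p = 0.0184) and 0.44 (SE 0.114, adjusted p = 0.019). The summed level of the 7 was 528 to 611 CPM in loaded vehicle-treated and 320 to 547 CPM in loaded DEX-treated tibiae, with a DEX median of 494 CPM. Without the loaded DEX library numbered 4, 3 were called lower and 6 were below 0, with a median of -0.22 against -0.33 with it, and 1 of the stress response genes was called lower and 1 higher. That fit called 15.2% of all genes. With the receptor covariate, with which 0.152% of all genes were called, no gene of either list was called, and the median of the 7 was -0.05.

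As a check of the treatment, 5 genes known to be induced by glucocorticoids were read. In loaded tibiae, Fkbp5, a chaperone of the glucocorticoid receptor, rose by 0.87 (SE 0.175, adjusted p = 0.00777, edgeR) and Zbtb16, a transcription factor, by 1.01 (SE 0.213, adjusted p = 0.0093). There 2 of the 5 log2 fold changes were below 0, with a median of 0.1, and 21.3% of all genes were called. With the receptor covariate none of the 5 was called in loaded tibiae and their median was 0.67. That fit called 0.152% of all genes. In unloaded tibiae, where 6.84% of all genes were called, none of the 5 was called higher. There 4 of the 5 log2 fold changes were below 0, with a median of -0.1. Fkbp5 had a log2 fold change there of 0.81 (SE 0.236, adjusted p = 0.0603), and the kinase Sgk1 fell by 0.63 (SE 0.152, adjusted p = 0.0318).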

How the data were processed

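RNA from mouse tibiae was sequenced after library preparation with a stranded total RNA kit. Per the labels, the authors aligned reads with STAR 2.7.10a and deposited expected counts from RSEM 1.2.28 (GRCm38) for 54446 genes, not scaled for library size. Whether counting used the strand is not given in the sources used here. Between 10.6% and 14.0% of values in a library had a fractional part, and all were rounded. Totals ran from 4641437 to 13032018 counts a library.

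Groups came from the sample labels. In each vehicle group, 1 column carried a number that no label has and was used as an unnumbered replicate. Unloaded DEX replicate 4 was left out. The study's figure legend gives n as mice per group, whereas the labels tie no library to a mouse. Comparisons were DEX in unloaded tibiae, DEX in loaded tibiae, loading in either treatment, and the interaction. Each was tested in R 4.3.3 with edgeR 4.0.16 (filterByExpr, TMM, quasi-likelihood F test, Benjamini-Hochberg adjustment over all genes tested, threshold 0.05), on the groups compared. The script was checked on simulated data. Standard errors are the absolute log2 fold change divided by the square root of F. Ratios between genes were compared by an exact permutation test (scipy 1.17.1).

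The members, gene lists and tests were chosen with earlier results of these data known. Aldh1l2 is tested only in unloaded tibiae. Named genes were the members, from each list at most 4 called genes with the smallest adjusted p, and for each member the 3 genes with the highest Spearman correlation. The osteoblast markers printed, and list genes printed where they were not called, were picked after their values were seen. Alternatives were DESeq2 1.42.0, its size factors, upper-quartile scaling, other filters, all 4 groups in 1 model, other choices of the libraries numbered DEX 4, the receptor sum as a covariate, the replicate number as a block, leaving out each library, and, chosen after seeing the data, an unblocked fit on the libraries that the block uses and list counts in loaded tibiae without DEX replicate 4 or with the receptor covariate.

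The replicate numbers were not taken to pair limbs. Correlations of the deviations of same-numbered libraries ran from -0.301 to 0.357.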

Additional observations from a re-analysis of the deposited data

Results flagged for a closer look

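Of 40 sets of values (10 genes in 4 groups), 7 had 1 library far from the others by Dixon's criterion at the 95% level, which chance alone meets in about 1 of 20 sets. For Aldh1l2 these were the highest unloaded DEX library, replicate 1, at 14 CPM, and the lowest loaded DEX library, replicate 5, at 5.63 CPM. Vehicle replicate 2 in unloaded tibiae was the highest of its group for both Psph (9.33 CPM) and Mthfd2 (46.6 CPM). The unnumbered loaded vehicle library was the highest of its group for Shmt2 at 52.3 CPM. For Trib3, unloaded vehicle replicate 5 was at 3.48 CPM and unloaded DEX replicate 3 at 2.72 CPM, each the highest of its group. Without unloaded DEX replicate 1, the log2 fold change of Aldh1l2 remained called, as in all fits that left out 1 library.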

How the results depend on the processing

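In unloaded tibiae, 1 of the 10 genes was called under every alternative run, and it was Aldh1l2 each time (log2 fold changes from -2.24 to -1.62). Elsewhere Aldh1l2, chosen on the loaded libraries, is not counted. In loaded tibiae, the count of called genes among the other 9 was 2 by DESeq2 and with all 4 groups in 1 model (Atf4 and Trib3), 1 with upper-quartile scaling or at least 10 counts in every library (Trib3), 1 without DEX replicate 2 (Trib3), and 0 otherwise, so leaving out each library gave 0 to 1. Over all genes, these fits called, in the same order, 5651 of 19780, 8446 of 23653, 4380 of 19780, 2203 of 15420 and 5822 of 20773. None of the 9 was called for loading or the interaction under any alternative. With the replicate block, the count of called genes was 1 in unloaded tibiae and 0 in the other comparisons. Aldh1l2 was then at -1.63 in unloaded tibiae (adjusted p = 0.0286, edgeR), against -1.62 (adjusted p = 0.0232) in the same libraries without the block, and the block changed no other call. The cause of these shifts was not tested.

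Over all genes the counts moved more. In unloaded tibiae, 1351 genes were called, against 2411 by DESeq2, 2922 with all 20 libraries, 2591 with the receptor covariate, 520 with the block, 566 in the same libraries without it, and 129 to 1867 when 1 library was left out. Upper-quartile scaling moved the median log2 fold change of all genes from 0.0334 to 0.1272 and the split from 564 higher and 787 lower to 1030 and 565. In loaded tibiae, 4206 genes were called (2554 higher and 1652 lower), against 9016 with no filter except 1 count, 8446 with all 4 groups, 2203 with at least 10 counts in every library, 2326 with the block, 1120 in the same libraries without it, 30 with the receptor covariate, and 2696 to 5822 when 1 library was left out. With upper-quartile scaling the split was 3385 higher and 995 lower, and the median of all genes moved to 0.1903.

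For loading in the vehicle-treated group, edgeR called 0 genes, against 141 by DESeq2, 50 with no filter except 1 count, 4 with all 4 groups and 0 to 4 when 1 library was left out. For loading in the DEX-treated group and the interaction, 0 were called, against 0 to 39 and 0 to 54 when 1 library was left out. By DESeq2, 50 were called for the interaction, and with no filter except 1 count, 1. Trib3 and Chac1 rest on 10 to 67 counts a library, and the part of counting error in their spread was not tested.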
